A study of Rattus norvegicus with 23 samples.

Results

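The question here was whether cauda sperm of male Long-Evans rats differed in small RNA between a higher and a lower dose of inhaled ozone. The comparison set the 8 libraries of rats exposed to 0.8 ppm ozone against the 8 of rats exposed to 0.4 ppm, 16 of the 23 libraries of the study. The other 7 libraries came from rats in filtered air and serve as background. All rats, air controls included, followed the same chamber schedule: week 1 held 3 sessions and week 2 held 2, each of 4 h. Chamber averages were 0.401 and 0.798 ppm. The ages of the rats are not given in the sources used here. Members were found by the treatment label of each rat, and every column of the 4 deposited tables (miRNA, tRNA, piRNA and Ensembl transcripts) was matched to 1 rat.

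Mature sperm have little transcription, and their small RNAs include miRNAs, piRNAs and fragments of tRNAs. A miRNA guides an Argonaute protein to messenger RNAs through its seed, the bases near its 5′ end, while piRNAs of the male germ line silence transposons. Sperm are stored in the cauda epididymis, where they also take up RNA from vesicles that the epididymal epithelium sheds. Ozone is an oxidant gas whose first target is the lining of the airways.

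No miRNA, tRNA row, piRNA row or transcript passed the test between the doses. The values below are therefore descriptions of a comparison without calls, and no named RNA is reported as changed. The mature sequences of the miRNAs that carry these descriptions come first, because members of a family share a seed and are read together. They were taken from RefSeq (GRCr8 set), are written 5′ to 3′ and have the seed, bases 2 to 8, in capitals. Of the 33 miRNAs named by rule, 32 had a sequence there, and miR-200a-3p did not. The first group is the GGCAGUG seed of the sperm-rich miR-34 and miR-449 family.
miR-34c-5p: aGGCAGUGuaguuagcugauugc
miR-449a-5p: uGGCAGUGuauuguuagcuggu
The second is the GAGGUAG seed of let-7, a family common to many somatic tissues.
let-7a-5p: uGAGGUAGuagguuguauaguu
let-7c-5p: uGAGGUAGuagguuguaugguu
The third holds X-linked miRNAs of the testis, which have different bases at the end of the seed.
miR-743a-3p: gAAAGACGccaaacuggguaga
miR-743b-3p: gAAAGACAccauacugaauaga
The last are the 6 miRNAs with the smallest p-values. Among measured miRNAs with a sequence (396 of 425 names), miR-17-2-3p shares its seed with miR-191a-3p and the other 5 share theirs with none.
miR-136-3p: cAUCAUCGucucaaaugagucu
miR-17-2-3p: aCUGCACUgcaagcacuucuuac
miR-503-3p: gGAGUAUUguuuccgcugccugg
miR-3580-5p: uGCUUGUAcuuauucuggugac
miR-216b-5p: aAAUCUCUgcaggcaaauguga
miR-96-5p: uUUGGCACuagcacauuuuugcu

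Deposited values are reads scaled by the authors within each table, called values below, and are never compared between tables. Whole reads could be recovered for the miRNA table, with 213839 to 1286612 per library over the 16 ozone libraries. The median was 504686 reads at 0.4 ppm and 709678 at 0.8 ppm. Several libraries stood apart (replicate numbers only name libraries). The 0.8 ppm replicate 7 was high in miR-143-3p, a miRNA of smooth muscle and stroma, at 76738 against a next value of 16860. The 0.8 ppm replicate 5 had the fewest miRNA reads of the study and the highest miR-200a-3p, an epithelial miRNA, at 7934. The 0.4 ppm replicate 5 was high in miR-10a-5p (71043) and was the library least like the other ozone libraries in the miRNA table. Of the 22 transcript markers of sperm, epididymal epithelium, leukocytes and erythrocytes looked for, 1 was measured (Lcn5, a lipocalin of the epididymis), so the labelled cell type was checked by miRNAs only. The miR-34 and miR-449 family, abundant in sperm, was the leading miRNA family. In bulk RNA, fewer cells of a type and less RNA per cell cannot be told apart.

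Among the 407 miRNAs tested, 0 passed an adjusted p of 0.05 in limma's moderated test (0% of the table, the smallest adjusted p being 0.729). At an unadjusted p under 0.05 there were 15, which is 3.69% of those tested, 11 of them higher and 4 lower at 0.8 ppm. The count tests on recovered reads also gave 0 calls. Unadjusted p-values under 0.05 numbered 14 of 251 filtered miRNAs in edgeR's quasi-likelihood test and 25 of 425 in DESeq2. Positive estimates made up 42.6% of all in edgeR and 49.4% in DESeq2, against 53.1% in limma. Groups without overlap occurred in 0% of miRNAs. Precision differed by table: the 95% interval of the log2 fold change lay within a 2-fold change either way for 250 miRNAs (61.4%). The same held for 259 of 273 tRNA rows (94.9%), for 12077 of the 30676 rows of piRNAs (39.4%) and for 366 of 617 transcripts (59.3%). For these features a larger change than 2-fold on the log2(value + 1) scale lies outside the interval, while for the rest it does not. On that scale the added 1 shrinks the changes of low features, so their intervals do not bound the change in abundance. Features with a mean value of at least 10 numbered 235 in miRNAs, 248 in tRNA rows, 13784 in piRNA rows and 280 in transcripts.

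**Figure D1:**
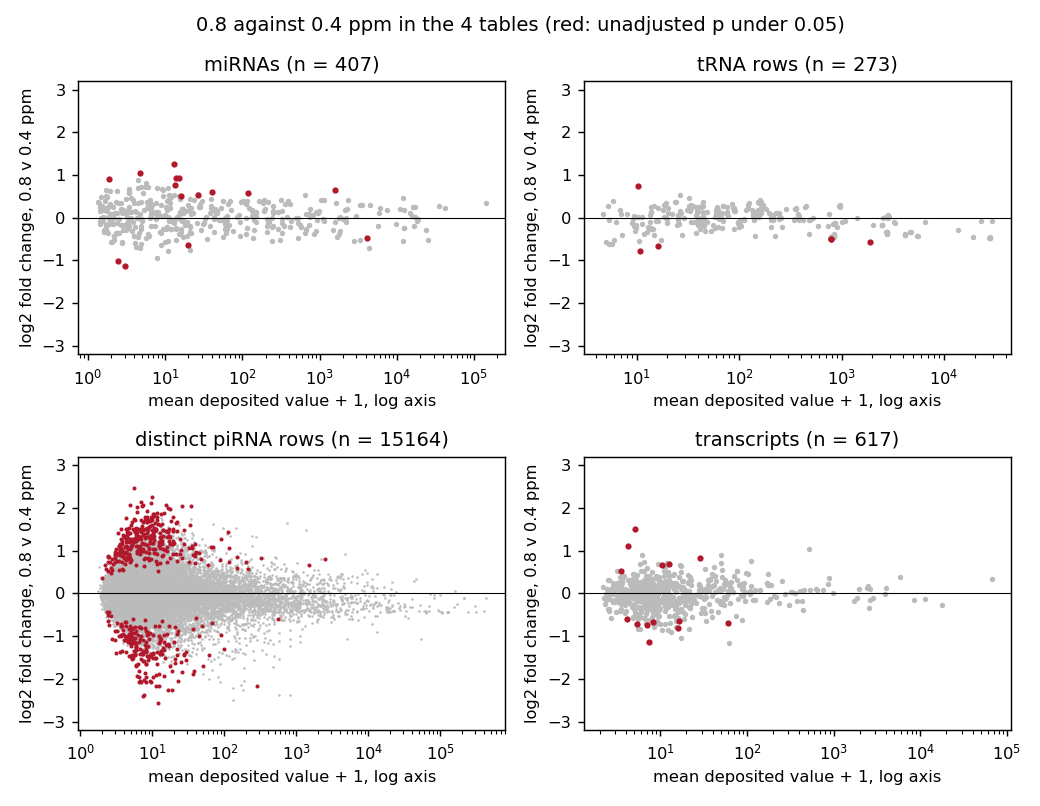
Log2 fold change at 0.8 against 0.4 ppm (vertical axis) by the mean deposited value plus 1 of the 16 ozone libraries (horizontal log axis), 1 point per feature, in the miRNA, tRNA, distinct piRNA and transcript tables. Red points have an unadjusted p under 0.05, none passes the adjusted threshold, and the widest spread is among features with low values.

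The 6 miRNAs with the smallest p-values were all of low abundance. miR-136-3p, a miRNA of the imprinted Dlk1-Dio3 locus, ran from 0 to 18.9 (median 5.6) at 0.4 ppm and 9.81 to 21.6 (median 15.8) at 0.8 ppm. All 8 libraries at 0.8 ppm lay above the median at 0.4 ppm, but only 2 lay above the highest 0.4 ppm library. The log2 fold change on the log2(value + 1) scale, used throughout, was 1.25 ± 0.39 (n = 8 per group; ± gives the SE of each log2 fold change below). Air libraries held 10.2 to 23.3 (median 12.7), close to the 0.8 ppm group. miR-17-2-3p, the passenger strand of a hairpin that yields miR-17-family miRNAs, had values of 2.53 to 16.4 (median 9.46) at 0.4 ppm and 9.58 to 28.5 (median 17.9) at 0.8 ppm. Of the 0.8 ppm libraries, 5 exceeded every 0.4 ppm library, and the log2 fold change was 0.93 ± 0.30. In air it ran from 5.3 to 10.9 (median 9.38), which overlapped the 0.4 ppm values and reached only the lowest of the 0.8 ppm ones. miR-3580-5p, for which no role is given here, had values of 2.53 to 15.5 (median 9.15) at 0.4 ppm and 9.78 to 19.2 (median 16.8) at 0.8 ppm and a log2 fold change of 0.76 ± 0.29. Here too 5 of the 0.8 ppm libraries were above the highest 0.4 ppm library, and air values spread over both groups, at 6.77 to 17.7 (median 13.1). These 3 miRNAs, in the order given, had medians of only 6, 10.5 and 9.5 reads at 0.4 ppm. There 3, 3 and 2 of the 8 libraries held at most 3 reads, while at 0.8 ppm 0 did. On recovered reads their log2 fold changes were 0.78, 0.87 and 0.62 in edgeR without a filter. In DESeq2 they were 0.82, 0.90 and 0.62.

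The other 3 rested on still fewer reads. miR-503-3p, from a cluster with miR-322, had values of 0 to 5.07 (median 3.65) at 0.4 ppm and 0 to 2.43 (median 0.7) at 0.8 ppm and was listed at 0 in 1 library at 0.4 ppm and 4 at 0.8 ppm. Its log2 fold change was -1.13 ± 0.42, and no 0.8 ppm library held more than 3 reads. miR-216b-5p, a miRNA best known from pancreas, was listed at 0 in 6 libraries at 0.4 ppm and 2 at 0.8 ppm, with values of 0 to 0.94 (median 0) at 0.4 ppm and 0 to 3.12 (median 1.45) at 0.8 ppm. The log2 fold change was 0.90 ± 0.36. miR-96-5p belongs to the miR-183, miR-96 and miR-182 cluster of sensory and epithelial cells and had values of 0 to 10.1 (median 1.23) at 0.4 ppm and 0 to 1.56 (median 0) at 0.8 ppm. Its log2 fold change was -1.02 ± 0.41, and its highest value came from 0.4 ppm replicate 5. A count of 0 allows up to 3 reads, worth 1.41 to 7.6 value units depending on the library. At 0.4 ppm 4, 8 and 6 of the 8 libraries held at most 3 reads of miR-503-3p, miR-216b-5p and miR-96-5p, and at 0.8 ppm 8, 6 and 8 did. Such limits cover counting error only, while the SEs and 95% intervals come from the spread between rats.

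**Figure D2:**
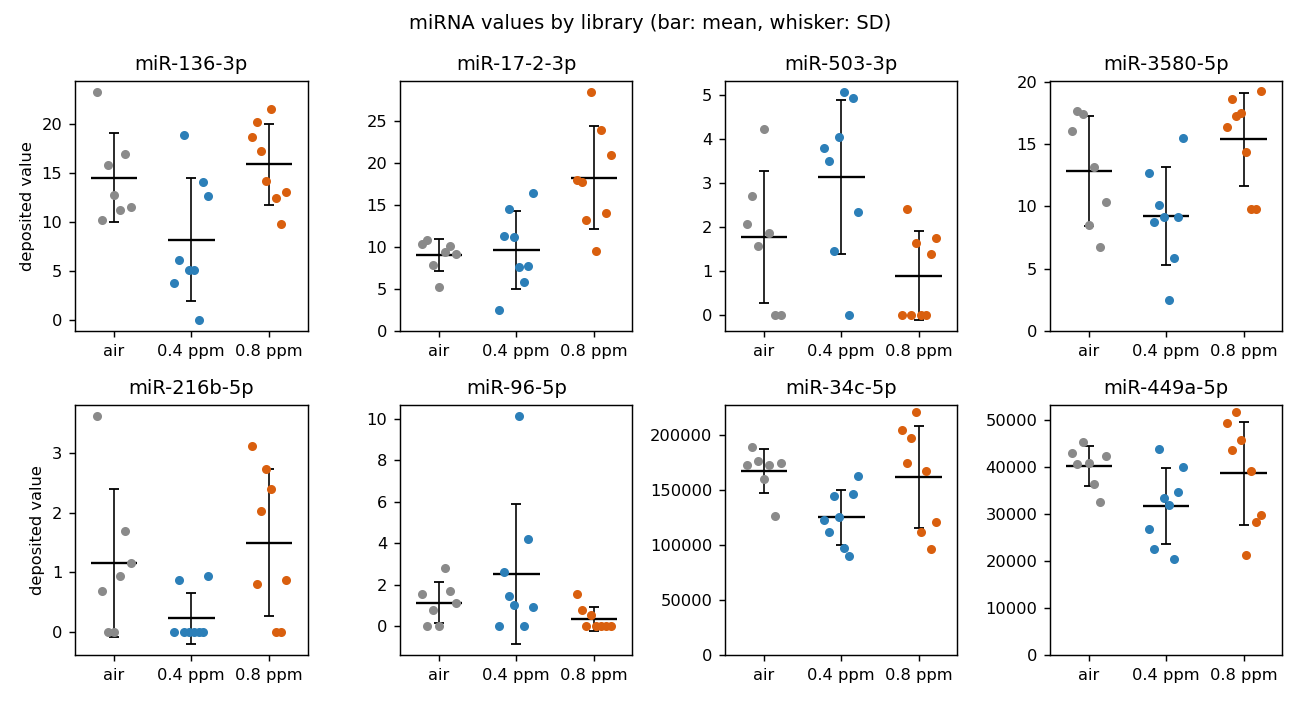
Deposited values (vertical axis, linear) of 8 miRNAs in each library of air (n = 7), 0.4 ppm (n = 8) and 0.8 ppm (n = 8), with the mean as a bar and the SD as a whisker. The 0.4 and 0.8 ppm groups overlap in every panel, and miR-503-3p, miR-216b-5p and miR-96-5p sit at or near 0 in many libraries.

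The most abundant miRNAs were those of the miR-34 and miR-449 family, which act in spermatogenesis and in cells with motile cilia. miR-34c-5p, the leading miRNA of these sperm, had values of 90352 to 162360.0 (median 124228) at 0.4 ppm and 96494 to 221099 (median 170828) at 0.8 ppm. The 0.8 ppm group was split: 5 libraries exceeded the highest 0.4 ppm library and the other 3 lay below the 0.4 ppm median. The log2 fold change was 0.34 ± 0.17 with a 95% interval of -0.01 to 0.68, and air libraries held 126048 to 189608 (median 173231). Its partner from the same seed, miR-449a-5p, had values of 20475 to 43719 (median 32637) at 0.4 ppm and 21242 to 51588 (median 41273) at 0.8 ppm and a log2 fold change of 0.27 ± 0.18. miR-34b-3p, from the hairpin next to miR-34c, had 27420.1 to 46225 (median 38922) at 0.4 ppm and 27698 to 60274 (median 47284) at 0.8 ppm, with a log2 fold change of 0.22 ± 0.16. All 7 measured members had positive estimates, from 0.10 to 0.45 with a median of 0.34, whereas 53.1% of all miRNAs tested were positive with a median of 0.02. The members share libraries and partly hairpins, and 0 of 7 passed the test. As a share of the miRNA table the family held 23.6% to 44.3% (median 36.2%) at 0.4 ppm and 24.1% to 51.3% (median 45.3%) at 0.8 ppm, against 30.8% to 47.9% in air. The 2 lowest 0.8 ppm libraries were replicates 7 and 5, and the lowest at 0.4 ppm was replicate 5. Summed over the GGCAGUG seed, 4 miRNAs had a log2 fold change of 0.33 (adjusted p = 0.737 over 304 seed families, in which 0 passed and 4.28% had an unadjusted p under 0.05).

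The X-linked miR-506 cluster, expressed in the testis, also had mostly positive estimates, 18 of 21 with a median of 0.25, and 0 passed. miR-743a-3p had values of 2659 to 3465 (median 3214) at 0.4 ppm and 2269 to 5309.9 (median 4017) at 0.8 ppm. In 6 of the 0.8 ppm libraries it exceeded all 0.4 ppm libraries, and 1 lay below them all. The log2 fold change was 0.29 ± 0.17, and in its neighbour miR-743b-3p it was 0.29 ± 0.19, from values of 3091 to 5006 (median 4018) at 0.4 ppm and 2436 to 7036 (median 5476) at 0.8 ppm. Under per-million scaling 16 of the 21 estimates were positive. Of the miR-17-92 and related clusters, which promote cell division, 8 of 9 were positive with a median of 0.30. The most abundant of them, miR-25-3p, had 8999 to 18898 (median 14761) at 0.4 ppm and 14927 to 21795 (median 17832) at 0.8 ppm, and all 8 libraries at 0.8 ppm lay above the 0.4 ppm median. Its log2 fold change was 0.26 ± 0.17. miR-93-5p, from the same transcript as miR-25, had 2130.3 to 4254 (median 2951) at 0.4 ppm and 2558 to 4797 (median 3820.1) at 0.8 ppm with a log2 fold change of 0.30 ± 0.18, and 3 of its 0.8 ppm libraries were above every 0.4 ppm library. In the miR-15 and miR-16 family, which restrains the cell cycle, 3 of 5 were positive with a median of 0.26. There miR-16-5p had 11252 to 18080.5 (median 16425) at 0.4 ppm and 11153 to 24330.0 (median 20862) at 0.8 ppm. In it 6 of the 0.8 ppm libraries were above every 0.4 ppm library and 1 was below them all, for a log2 fold change of 0.26 ± 0.17. The less abundant miR-15b-5p had 73.5 to 259 (median 194) at 0.4 ppm and 125 to 357 (median 234) at 0.8 ppm and a log2 fold change of 0.37 ± 0.24, with overlapping groups.

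The let-7, miR-200, miR-183 and miR-10 groups, described next, had mostly negative estimates. In let-7 with miR-98, which favour differentiated cell states, 1 of 9 was positive and the median was -0.28. let-7c-5p had values of 6337 to 22192 (median 13711) at 0.4 ppm and 4435 to 22146 (median 8234) at 0.8 ppm and a log2 fold change of -0.54 ± 0.31. For let-7a-5p the values were 7961 to 28822 (median 10187) at 0.4 ppm and 8363 to 18785 (median 9459.8) at 0.8 ppm and the log2 fold change -0.23 ± 0.23, which was -0.057 without 0.4 ppm replicate 5 and -0.35 without 0.8 ppm replicate 7. Its values equal those of miR-3596a on the opposite strand in all libraries, so reads of the pair cannot be told apart. In both miRNAs the groups overlapped widely, and in let-7a-5p the highest 0.8 ppm value came from replicate 7. The family held 7.16% to 12.2% (median 10.3%) at 0.4 ppm and 5.18% to 12.8% (median 6.98%) at 0.8 ppm. In 4 of the 0.8 ppm libraries the share was below every 0.4 ppm library, while in 2, replicates 5 and 7, it was above them all.

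The miR-200 family, which marks epithelium, had 2 of 8 positive estimates and a median of -0.19. miR-141-3p had values of 3104 to 9112 (median 4824) at 0.4 ppm and 2299 to 4994 (median 3473) at 0.8 ppm, with a log2 fold change of -0.49 ± 0.24 (unadjusted p = 0.0498, adjusted p = 0.729). Only 1 of the 0.8 ppm libraries lay above the 0.4 ppm median, and 3 lay below all 0.4 ppm libraries. miR-200a-3p had 2532 to 5598 (median 3314) at 0.4 ppm and 1247 to 7934 (median 2346) at 0.8 ppm and a log2 fold change of -0.53 ± 0.27, with 5 of the 0.8 ppm libraries below all at 0.4 ppm and replicate 5 above them all. The family's share ran from 1.06% to 3.23% (median 1.58%) at 0.4 ppm and 0.699% to 2.95% (median 1.12%) at 0.8 ppm, and air held 0.688% to 1.45%. In the miR-183, miR-96 and miR-182 cluster both measured members had negative estimates. The abundant one, miR-182, had 1785 to 5338 (median 2737) at 0.4 ppm and 1101 to 5703 (median 1815) at 0.8 ppm with a log2 fold change of -0.54 ± 0.28, and 3 of its 0.8 ppm libraries lay below all at 0.4 ppm.

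Of the miR-10, miR-99, miR-100 and miR-125 family, encoded near Hox and let-7 genes, 1 of 7 was positive with a median of -0.26. Its miR-10a-5p had 13433 to 71043 (median 25535) at 0.4 ppm and 9878 to 53831 (median 16608) at 0.8 ppm with a log2 fold change of -0.53 ± 0.34, and 1 of the 0.8 ppm libraries, replicate 7, lay above the 0.4 ppm median. In miR-99b-5p the values were 610.1 to 3660.2 (median 1525) at 0.4 ppm and 846 to 3655 (median 1237) at 0.8 ppm and the log2 fold change -0.09 ± 0.31, and all 8 libraries at 0.8 ppm lay within the range at 0.4 ppm. miR-30a-5p, a broadly expressed miRNA, had 17220.5 to 42072 (median 26393) at 0.4 ppm and 16296 to 29863 (median 21130.3) at 0.8 ppm. Its log2 fold change was -0.28 ± 0.18, and 1 of the 0.8 ppm libraries lay above the 0.4 ppm median. Under per-million scaling the counts of positive estimates were 7 of 7 for miR-34 and miR-449, 8 of 9 for miR-17-92, 1 of 9 for let-7 with miR-98, 1 of 8 for miR-200 and 1 of 7 for miR-10 and its relatives, close to those above.

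Markers of other cells were measured beside these families. Of 7 leukocyte miRNAs 1 was positive (median -0.13), and estimates ran from -0.37 to 0.70, so the positive one was the largest in size. Their summed share was 2.14% to 6.43% (median 2.63%) at 0.4 ppm and 1.75% to 4.75% (median 2.31%) at 0.8 ppm. Within it miR-146b-5p had 9612 to 45688 (median 12739) at 0.4 ppm and 10668 to 31000.1 (median 13334) at 0.8 ppm and a log2 fold change of -0.19 ± 0.27. miR-146a-5p, a regulator of inflammatory signalling with the same seed, had 636 to 1349 (median 886) at 0.4 ppm and 496 to 1079 (median 694) at 0.8 ppm. Its log2 fold change was -0.37 ± 0.19, and 3 of its 0.8 ppm libraries lay below all at 0.4 ppm. Of 4 muscle and stroma miRNAs 1 was positive (median -0.07), with shares of 1.85% to 4.17% (median 2.87%) at 0.4 ppm and 1.6% to 11.3% (median 1.99%) at 0.8 ppm, the highest being replicate 7. miR-143-3p had 9545 to 30483 (median 15122) at 0.4 ppm and 9717 to 76738 (median 12936) at 0.8 ppm and a log2 fold change of -0.03 ± 0.29. miR-145-5p, its neighbour in the genome, had 17.4 to 55.7 (median 46.9) at 0.4 ppm and 29.9 to 238 (median 39.7) at 0.8 ppm and a log2 fold change of 0.39 ± 0.31, which was 0.080 without 0.8 ppm replicate 7. In both the median was lower at 0.8 ppm, while the highest library of both groups was 0.8 ppm replicate 7. Of 3 erythroid miRNAs 1 was positive, or 0 under per-million scaling, (median -0.04) and the summed share was 0.0107% to 0.205% (median 0.0766%) at 0.4 ppm and 0.0218% to 0.0945% (median 0.0598%) at 0.8 ppm. miR-451-5p, a red cell miRNA, had 40.6 to 546 (median 211) at 0.4 ppm and 72.8 to 244 (median 202) at 0.8 ppm and a log2 fold change of -0.04 ± 0.45. miR-144-5p, from the same transcript, had 35.5 to 332 (median 139) at 0.4 ppm and 40.7 to 196 (median 137) at 0.8 ppm and a log2 fold change of 0.05 ± 0.41. The 0.4 ppm group was the more spread in both miRNAs. All defining markers of these 3 lists that were measured were above 0 in at least 8 of 23 libraries. miR-133a-3p, miR-133b-3p and miR-486, also on them, had no row under these names in the miRNA table. The part of these cells in the family values was not tested.

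**Figure D3:**
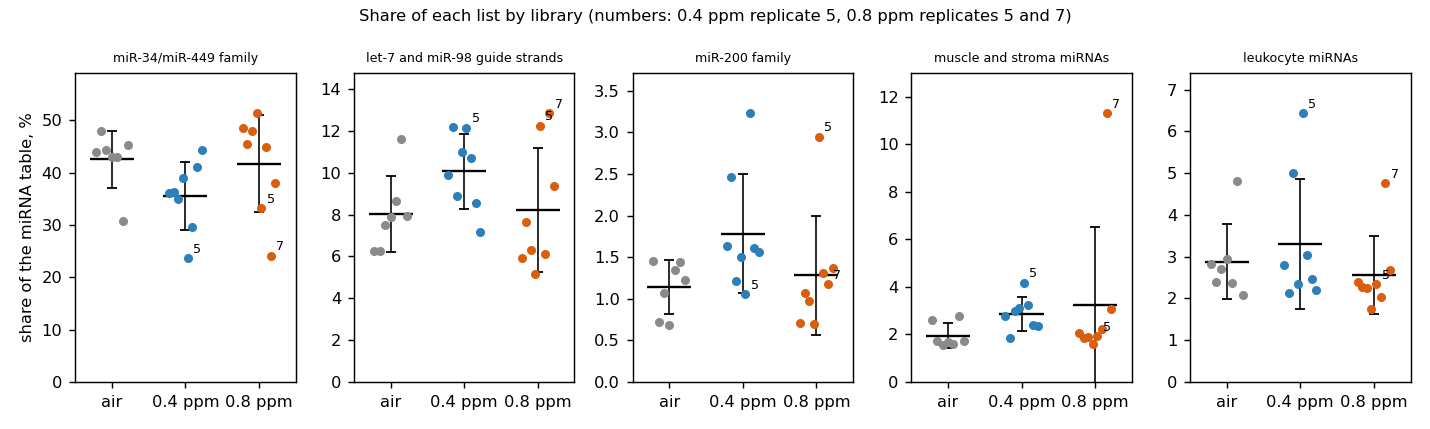
Share of the miRNA table (vertical axis, %) held by 5 miRNA lists in each library of air, 0.4 ppm and 0.8 ppm, with the mean as a bar and the SD as a whisker. Numbered points are 0.4 ppm replicate 5 and 0.8 ppm replicates 5 and 7, which include the lowest miR-34 and miR-449 shares (23.6% and 24.1%) and the highest muscle and stroma share (11.3%).

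Lists tied to stress and the Dlk1-Dio3 list had estimates of both signs. Of 9 redox and hypoxia miRNAs 4 were positive, with a median of -0.05. miR-21-5p, a stress-responsive miRNA, had 3234 to 7782 (median 5762) at 0.4 ppm and 4408 to 10701 (median 5493) at 0.8 ppm and a log2 fold change of 0.11 ± 0.19. For miR-27b-3p the values were 766 to 1350.2 (median 919) at 0.4 ppm and 777 to 1165 (median 881) at 0.8 ppm and the log2 fold change -0.06 ± 0.16. For miR-21-5p 1 library at 0.8 ppm lay above all at 0.4 ppm, and for miR-27b-3p all 8 lay within the 0.4 ppm range. Of 9 sperm miRNAs linked to paternal stress in other work 5 were positive, with a median of 0.10, and 2 of them, miR-34c-5p and miR-449a-5p, are counted above. Of 19 miRNAs from the Dlk1-Dio3 locus 9 were positive, with a median of -0.02. Its most abundant member, miR-541-5p, had 66.3 to 261 (median 101) at 0.4 ppm and 51 to 209 (median 81.6) at 0.8 ppm and a log2 fold change of -0.37 ± 0.29, with 4 of the 0.8 ppm libraries below all at 0.4 ppm. The next, miR-382-5p, had 25.3 to 86.2 (median 48.4) at 0.4 ppm and 33.4 to 99.5 (median 39.8) at 0.8 ppm and a log2 fold change of -0.06 ± 0.25. No member of these 3 lists passed the test.

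**Figure D4:**
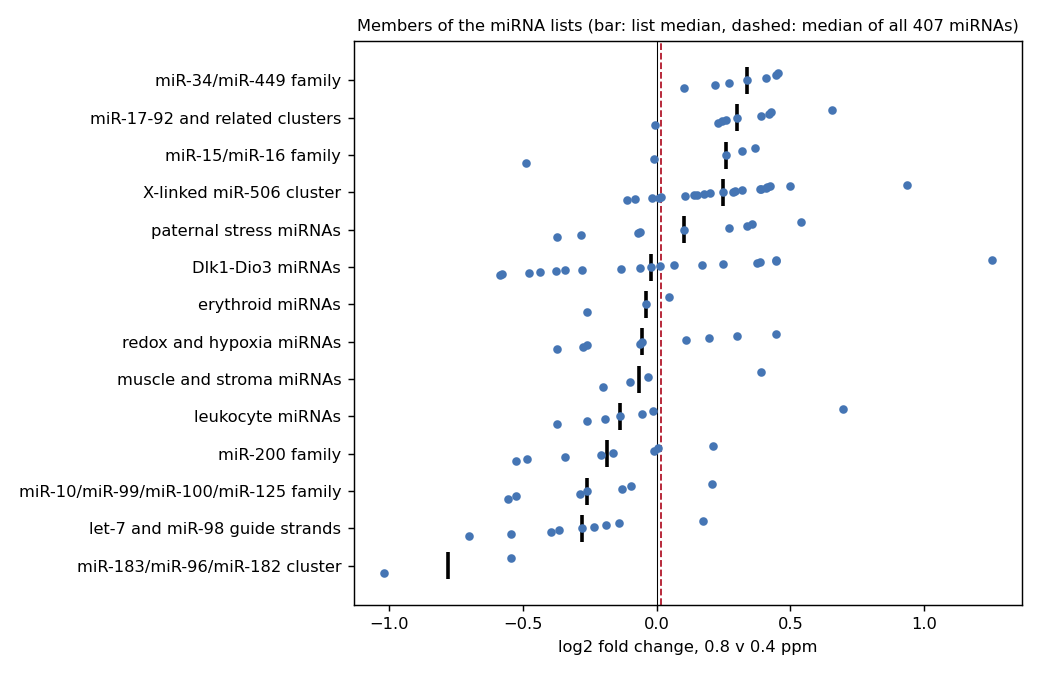
Log2 fold change at 0.8 against 0.4 ppm (horizontal axis) of each measured member of 14 miRNA lists (rows), with list medians as bars and the median of all 407 miRNAs as a dashed line. The medians run from -0.78 in the miR-183, miR-96 and miR-182 cluster to 0.34 in the miR-34 and miR-449 family, and no point is a call. The first cluster has only 2 measured members. Of these, miR-96-5p held at most 3 reads in 6 of 8 libraries at 0.4 ppm and in all 8 at 0.8 ppm.

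The 5p and 3p arms of a hairpin were compared within each library, as a log2 ratio with 1 added to each value. Of 111 hairpins 0 passed (smallest adjusted p = 0.618), and 4.5% had an unadjusted p under 0.05. Under per-million scaling, added after seeing the data, 0 passed (smallest adjusted p = 0.659). The smallest p-value was that of miR-345, with a log2 ratio of -4.48 to -1.69 (median -2.43) at 0.4 ppm and -2.73 to -1.24 (median -1.47) at 0.8 ppm. The difference was 0.97 ± 0.33, and 5 of the 0.8 ppm libraries were above all at 0.4 ppm. Leukocyte miR-142 had log2 ratios of 6.07 to 7.99 (median 6.52) at 0.4 ppm and 5 to 6.9 (median 6.02) at 0.8 ppm and a difference of -0.83 ± 0.30, with 4 of the 0.8 ppm libraries below all at 0.4 ppm. Differences in log2 ratio were 1.16 ± 0.46 for miR-503 and 0.87 ± 0.40 for miR-21, whose minor arms are rare.

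Of 273 tRNA rows 0 passed (smallest adjusted p = 0.751), and 6 rows, 2.2% of the table, had an unadjusted p under 0.05. Near-identical tRNA genes share reads, so rows of 1 anticodon are not separate measurements, and the deposited rows do not say which fragment of the tRNA was read. Rows named tRX are tRNA-like genes without a confident anticodon. The smallest p-value was in tRX-Arg-NNN-2-1, with 3.48 to 11.2 (median 6.13) at 0.4 ppm and 7.45 to 21 (median 10.9) at 0.8 ppm, where all 0.8 ppm libraries were above the 0.4 ppm median. Its log2 fold change was 0.75 ± 0.26. The log2 fold changes of the others were negative: -0.58 ± 0.23 in tRX-Gly-NNN-135-1, -0.65 ± 0.30 in tRX-Val-NNN-27-1, -0.77 ± 0.36 in tRNA-Glu-TTC-5-1, -0.50 ± 0.24 in tRNA-Val-CAC-3-1 and -0.49 ± 0.24 in tRNA-Val-AAC-1-4. In tRX-Gly-NNN-135-1 the values were 1368 to 3211 (median 2220.3) at 0.4 ppm and 978 to 3483 (median 1313) at 0.8 ppm, with 4 of the 0.8 ppm libraries below all at 0.4 ppm and replicate 7 above them all.

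tRNA-Gly-GCC, whose 5′ fragments are a main small RNA of mature sperm, had negative estimates in 11 of 11 rows. The row tRNA-Gly-GCC-1-5 had 15935 to 52778 (median 30458) at 0.4 ppm and 11130.4 to 43206 (median 19674) at 0.8 ppm, and its log2 fold change was -0.46 ± 0.25. The groups overlapped over most of their range. Summed over the anticodon the log2 fold change was -0.43 ± 0.24 (adjusted p = 0.716 over 55 anticodons, of which 0 passed and 1.82% had an unadjusted p under 0.05). Rows of tRNA-Glu-CTC (9), tRNA-Val-AAC (5) and tRNA-Val-CAC (6), which also yield sperm fragments, were all negative, with sums of -0.35, -0.44 and -0.44. Other glycine and glutamate anticodons were mixed: 2 of 5 rows were positive in tRNA-Gly-CCC (sum -0.44) and 6 of 10 in tRNA-Glu-TTC (sum 0.0037). tRNA-Glu-CTC-1-6 had 2607 to 8999 (median 4984) at 0.4 ppm and 1954 to 6082 (median 3778) at 0.8 ppm, and tRNA-Val-AAC-1-1 had 3521 to 11687 (median 5225) at 0.4 ppm and 2318 to 7765 (median 4795) at 0.8 ppm. Rows of tRNA-Asp-GTC (13 of 14), tRNA-Asn-GTT (13 of 13), tRNA-Ile-AAT (8 of 8) and tRNA-Gln-CTG (8 of 9) were positive, with sums of 0.21, 0.22, 0.14 and 0.18. The most abundant single row, tRNA-Leu-CAA-2-2, had 14245 to 42128 (median 33373) at 0.4 ppm and 19323 to 35144 (median 29065) at 0.8 ppm and a log2 fold change of -0.08 ± 0.22. Among the selenocysteine, serine, aspartate and lysine rows, log2 fold changes were -0.28 ± 0.22 for tRNA-SeC-TCA-1-1, -0.13 ± 0.27 for tRNA-Ser-TGA-4-1, -0.0026 ± 0.21 for tRNA-Asp-GTC-1-1 and -0.13 ± 0.21 for tRNA-Lys-TTT-1-2.

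These directions depend on scaling. Under the authors' scaling 48.4% of tRNA rows were positive and the median was -0.01, while scaling each library to the same total (per-million scaling) moved the median to 0.26 and 79.9% of rows were positive. The sum for tRNA-Gly-GCC was then -0.15, below that median but nearer to 0, and tRNA-Asp-GTC was 0.49. The Glu-CTC, Val-AAC, Val-CAC and tRX-Gly-NNN sums were -0.07, -0.16, -0.16 and -0.19. The sum for tRNA-Leu-CAA moved from -0.08 to 0.20, and no sum passed under either scaling. As shares of the table, tRNA-Gly-GCC held 26.8% to 39.2% (median 32.6%) at 0.4 ppm and 21.6% to 37.2% (median 30.2%) at 0.8 ppm, against 28.3% to 38.7% in air. The other tables moved as well, to medians of -0.05 with 45.2% positive in miRNAs, 0.17 with 69.4% positive in piRNA rows and -0.11 with 33.5% positive in transcripts.

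**Figure D5:**
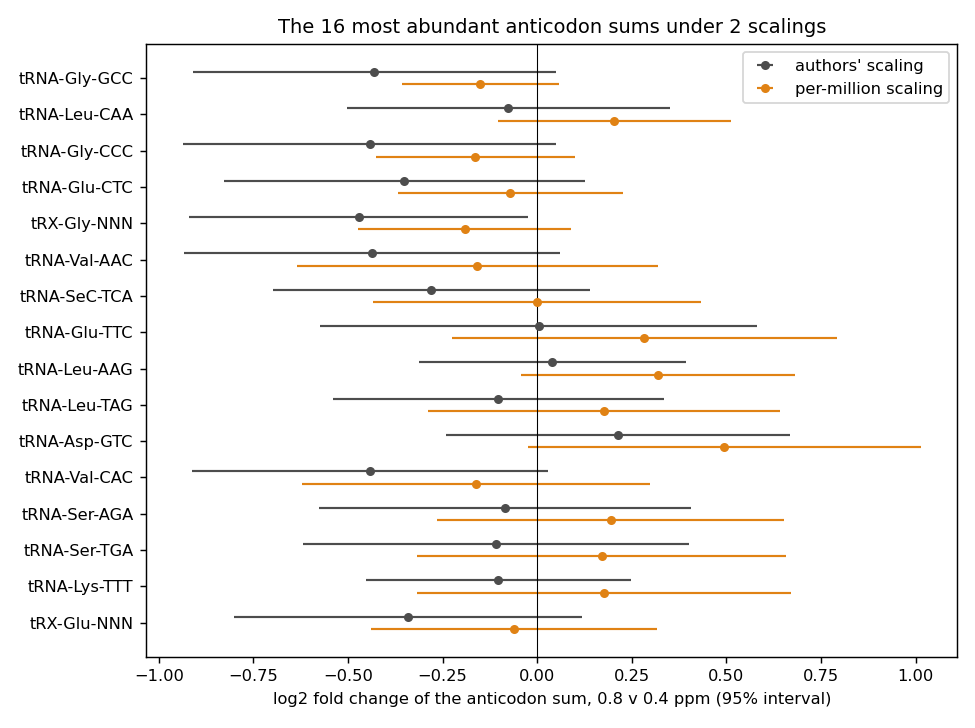
Log2 fold change at 0.8 against 0.4 ppm (horizontal axis) of the 16 anticodon sums with the largest mean share at 0.4 ppm (rows), with 95% intervals, under the authors' scaling and under per-million scaling. Per-million points lie to the right by about 0.28 in each row, for example from -0.43 to -0.15 for tRNA-Gly-GCC.

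Of 30676 piRNA rows 0 passed (smallest adjusted p = 0.995), and 804 rows, 2.62%, had an unadjusted p under 0.05. Many rows repeat each other exactly, and 15164 are distinct. Among 528 distinct rows with an unadjusted p under 0.05, 360 had a mean value under 10. The largest estimate among the smallest p-values was that of piR-rno-1159698, with 0.00131 to 4.52 (median 0.0483) at 0.4 ppm and 1.8 to 18.8 (median 8.35) at 0.8 ppm and a log2 fold change of 2.46 ± 0.53. piR-rno-346434 had 0.0107 to 21.4 (median 13.5) at 0.4 ppm and 0.018 to 3.7 (median 0.451) at 0.8 ppm and a log2 fold change of -2.41 ± 0.51. The log2 fold changes of the next 4 were -2.38 ± 0.55 in piR-rno-1793249, 2.06 ± 0.51 in piR-rno-840700, 0.84 ± 0.21 in piR-rno-1462262 and -2.07 ± 0.53 in piR-rno-2566420. In piR-rno-346434 no 0.8 ppm library reached the 0.4 ppm median, yet the 0.4 ppm values themselves ran from near 0. Groups without overlap occurred in 3 rows, 0.00978% of the table, all with the same values. This was piR-rno-720069, with 0.000272 to 5.04 (median 4.06) at 0.4 ppm and 5.14 to 12.2 (median 6.46) at 0.8 ppm, a log2 fold change of 1.03 ± 0.38 and an adjusted p of 0.995.

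The 200 most abundant distinct piRNAs held 84.8% of the signal of distinct rows. None of them had an unadjusted p under 0.05 in limma, the smallest being 0.0785, and their log2 fold changes ran from -1.07 to 0.92 with a median of -0.22. Positive estimates numbered 43 of 200 under the authors' scaling and 110 of 200 under per-million scaling. Over all piRNA rows 49.0% were positive under the authors' scaling (median -0.01) and 69.4% under per-million scaling (median 0.17). The median of the 200 under per-million scaling was 0.02, so it lay below that of all rows under both scalings. The leading row, piR-rno-3104129, had 140438 to 1123100.0 (median 350500.5) at 0.4 ppm and 182048 to 800540.0 (median 351118) at 0.8 ppm and a log2 fold change of -0.10 ± 0.35. Of the next most abundant over all 23 libraries, piR-rno-2129341 and piR-rno-2225649 had log2 fold changes of -0.42 ± 0.27 and -0.29 ± 0.31.

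Of 617 transcripts 0 passed (smallest adjusted p = 0.997), and 2.27% had an unadjusted p under 0.05. In a small RNA library such reads are fragments, so the values say little of intact messenger RNA. The smallest p-value was that of the unnamed gene ENSRNOG00000063848, with 0.545 to 9.6 (median 1.05) at 0.4 ppm and 2.37 to 7.05 (median 3.96) at 0.8 ppm and a log2 fold change of 1.12 ± 0.34. Synpo2, an actin-binding protein of muscle, had 0.00472 to 7.54 (median 1) at 0.4 ppm and 0.0242 to 8.68 (median 7.4) at 0.8 ppm and a log2 fold change of 1.51 ± 0.53. One transcript of Pde8a, a cyclic AMP phosphodiesterase, had 3.29 to 12.1 (median 9.34) at 0.4 ppm and 6.17 to 20.1 (median 14.9) at 0.8 ppm and a log2 fold change of 0.69 ± 0.28, with 6 of the 0.8 ppm libraries above all at 0.4 ppm. A second, near-identical Pde8a transcript followed it. RGD1563815 had a log2 fold change of -0.73 ± 0.31. Epb41l2, a membrane skeleton protein, had 1.69 to 35.5 (median 6.04) at 0.4 ppm and 0.000469 to 6.52 (median 3.07) at 0.8 ppm and a log2 fold change of -1.13 ± 0.48, its highest value being 0.4 ppm replicate 5.

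The mitochondrial noncoding rows, tRNAs and ribosomal RNAs of the mitochondrion, held 23.7% to 57% of this table at 0.4 ppm and 15.6% to 64% at 0.8 ppm. Of the 15 rows 11 were positive, with a median of 0.31, and none passed. Under per-million scaling 10 were positive. The leading one, AY172581.24, had 13878 to 97568 (median 55695) at 0.4 ppm and 18805 to 112660.0 (median 77028) at 0.8 ppm and a log2 fold change of 0.35 ± 0.35. Without 0.4 ppm replicate 6 it was 0.074, and without 0.8 ppm replicate 5 it was 0.61. Of 595 nuclear rows 278 were positive, with a median of -0.02. The abundant Stat2, an interferon signalling factor, had 5252 to 37661 (median 16224) at 0.4 ppm and 5984 to 52779 (median 11976) at 0.8 ppm and a log2 fold change of -0.26 ± 0.48, its highest value being 0.8 ppm replicate 5. Olr1568, an olfactory receptor, had 2484 to 50546 (median 8813) at 0.4 ppm and 3875 to 16179 (median 8114) at 0.8 ppm and a log2 fold change of -0.12 ± 0.44.

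No measure of the whole library passed the test between the doses. The 10 most abundant rows held 62.9% ± 3.94 of the tRNA table at 0.4 ppm and 59.6% ± 2.67 at 0.8 ppm (SD, n = 8 each, exact permutation p = 0.0746, adjusted p = 0.283 over 10 measures). In the miRNA table they held 59.7% ± 1.98 and 62.4% ± 3.69 (SD, n = 8 each, exact permutation p = 0.0848, adjusted p = 0.283). The Shannon entropy of the miRNA table, a measure of how evenly reads are spread, was 4.98 ± 0.12 bits at 0.4 ppm and 4.78 ± 0.24 bits at 0.8 ppm (SD, n = 8 each, exact permutation p = 0.0566, adjusted p = 0.283). miRNA reads per library differed by less than their spread (exact permutation p = 0.336, two-sided like the others). Libraries of 1 dose were about as alike as libraries of different doses: the median rank correlation over 402 distinct miRNAs was 0.932 within 0.4 ppm, 0.960 within 0.8 ppm and 0.941 between them, as a description of pairs that share libraries.

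Air levels were set beside both doses. Comparisons of each dose with air and of the doses with each other share libraries, so air values are given as levels only. Among the 15 miRNAs with an unadjusted p under 0.05 the air mean lay nearer to the 0.8 ppm mean in 9, or 60%, beside 59.2% of all distinct miRNAs. For distinct piRNA rows the shares were 62.9% and 56.7%. The spread at 0.4 ppm was the widest of the groups, with a median SD over miRNAs of 0.68 on the log2 scale against 0.62 at 0.8 ppm and 0.51 in air.

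The comparison was repeated without the libraries that stood apart. Without 0.8 ppm replicates 5 and 7 and 0.4 ppm replicate 5, chosen after their values were seen, 0 of 407 miRNAs passed (smallest adjusted p = 0.0708 in limma). Of these 407, 77 had an unadjusted p under 0.05, against 15 with all libraries. Among tRNA rows 1 passed, tRX-Gly-NNN-135-1, at a log2 fold change of -0.86 and an adjusted p of 0.0407. Since the 3 libraries were picked for values far from their own group, smaller p-values without them are built into that choice and do not stand as calls. Leaving out 0.8 ppm replicate 7 alone gave 0 miRNA calls with 54 of 407 at an unadjusted p under 0.05. Leaving out 0.8 ppm replicate 5 alone gave 0 with 52 of 407. The medians of the miR-34 and miR-449 family, let-7 with miR-98 and the miR-200 family were, without all 3, 0.48, -0.54 and -0.37, against 0.34, -0.28 and -0.19 with them.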

How the data were processed

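Small RNA of cauda sperm was sequenced in 23 libraries (air 7, 0.4 ppm 8, 0.8 ppm 8), grouped by treatment label. Per the labels' protocols, RNA under 200 nucleotides was isolated with mirVana, libraries were made with the CleanTag kit, and a NextSeq 500 read single ends. RNA integrity numbers were 2 to 4. Partek, Bowtie 1.0.0 and the rn6 build are listed in the submitters' processing notes, without their settings. Deposited values are a read signal that the authors scaled within each table by a median-ratio factor, as the equal median ratios of all libraries show. Dividing low miRNA values by the value of 1 read gave whole numbers, within 0.1, for 100% of them. The piRNA and transcript depth is unknown. Identical values in 6 pairs of miRNA rows on opposite strands show that strand was not used there. Nothing says that a library pools rats. The runs or pools of the libraries are not given, so no batch could be compared.

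limma 3.58.1 (R 4.3.3, trend and robust moderation) was fitted to log2(value + 1) of features above 0 in at least 8 of 23 libraries, all 3 groups in 1 fit, with Benjamini-Hochberg adjustment within each table at 0.05. edgeR 4.0.16 and DESeq2 1.42.0 were run on recovered miRNA reads as alternatives. Exact permutations enumerated 12870 relabellings, with a smallest p of 0.0001554. The scripts were tested on simulated data. Other alternatives were pseudocounts, filters, scalings, weights, covariates, rank tests and leaving out libraries. Features were named by rule. Each table gave the 6 smallest p-values, the 3 or 4 most abundant features (mean of all 23 libraries) and groups without overlap. Also named were up to 2 most abundant members of each list, features called under an alternative alone and the 4 smallest p-values among arm ratios. Sums over a seed or an anticodon are shown for families and anticodons described in the text and, apart from tRX-Gly-NNN, were not picked by p-value. The plan also named the 4 smallest p-values among seed families and among anticodon sums, and these are not all given. Members and lists were chosen with earlier results of these data known, so lists are described without a test.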

Additional observations from a re-analysis of the deposited data

Results flagged for a closer look

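Within each dose group the highest and lowest library were compared with the rest for 180 groups of 8 values, and 31 held 1 library far from the others. Chance sets apart about 1 in 20 groups of independent, normally distributed values, and the rate was not measured for these values, which are skewed and share libraries. The cause was not tested.

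The library with the largest number of these values, 12 of 31, was 0.8 ppm replicate 7, which was the highest of its group in let-7a-5p (18785), miR-10a-5p (53831), miR-99b-5p (3655), miR-146b-5p (31000.1), miR-143-3p (76738), miR-145-5p (238), miR-27b-3p (1165), miR-541-5p (209) and miR-382-5p (99.5). The same library was the highest in tRX-Gly-NNN-135-1 (3483), tRNA-Ser-TGA-4-1 (7185) and the tRX-Gly-NNN sum (37688). The 0.8 ppm replicate 5 was the highest in miR-200a-3p (7934), miR-182 (5703), tRNA-Asp-GTC-1-1 (2551), piR-rno-1793249 (4.34) and Stat2 (52779). Its piRNA table had the lowest share in the 10 most abundant rows (11.7%) and the highest entropy (9.8 bits).

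At 0.4 ppm, replicate 5 was the highest in miR-96-5p (10.1), miR-10a-5p (71043), miR-99b-5p (3660.2), tRNA-SeC-TCA-1-1 (28466), Synpo2 (7.54) and Epb41l2 (35.5). Replicate 6 was the highest in miR-141-3p (9112) and had the lowest piRNA share in the 10 most abundant rows (16.3%). Single values of other 0.4 ppm libraries were miR-27b-3p in replicate 1 (1350.2), ENSRNOG00000063848 in replicate 3 (9.6), Olr1568 in replicate 4 (50546) and piR-rno-1159698 in replicate 8 (4.52).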

How the results depend on the processing

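No feature passed in any table under another pseudocount, filter, scaling, library weighting, covariate, rank test or the 16 ozone libraries alone, and the library measures did not pass either. With library weights 89 of 407 miRNAs had an unadjusted p under 0.05 in limma (smallest adjusted p = 0.115), against 15 without weights. Leaving out 1 library at a time gave 0 to 1 calls in piRNA rows and 0 to 1 in transcripts: without 0.4 ppm replicate 5, piR-rno-346434 passed (log2 -2.86, adjusted p = 0.00546), and without 0.4 ppm replicate 3, ENSRNOG00000063848 passed (log2 1.43, adjusted p = 0.00945). Without the 3 libraries that stood apart, an alternative chosen after seeing the data, 1 tRNA row passed, list medians moved to -0.54 for let-7 with miR-98, -0.43 for leukocyte miRNAs, 0.48 for paternal stress miRNAs, -0.37 for miR-200, -0.45 for erythroid (0 of 3 positive), -0.18 for muscle and stroma, -0.15 for redox and hypoxia (2 of 9 positive) and -0.092 for Dlk1-Dio3 miRNAs, and signs turned in miR-144-5p (-0.41), miR-21-5p (-0.074) and piR-rno-3104129 (0.090). Per-million scaling turned the sign of miR-144-5p (-0.051), tRNA-Leu-CAA-2-2 (0.20), tRNA-Ser-TGA-4-1 (0.15), tRNA-Asp-GTC-1-1 (0.28), tRNA-Lys-TTT-1-2 (0.15) and piR-rno-3104129 (0.14).

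With 1 library left out, estimates crossed 0 in these ranges: miR-99b-5p -0.30 to 0.10, miR-146b-5p -0.36 to 0.022, miR-143-3p -0.36 to 0.10, miR-451-5p -0.32 to 0.21, miR-144-5p -0.18 to 0.28, miR-21-5p -0.012 to 0.18, miR-27b-3p -0.12 to 0.013, miR-382-5p -0.22 to 0.064, tRNA-Ser-TGA-4-1 -0.32 to 0.065, tRNA-Asp-GTC-1-1 -0.13 to 0.11, piR-rno-3104129 -0.31 to 0.12 and Olr1568 -0.39 to 0.23. Without crossing 0, others moved by over 1.5 times. Leaving out 0.4 ppm replicate 5 gave miR-10a-5p -0.32, miR-541-5p -0.20, miR-15b-5p 0.19, tRNA-Val-AAC-1-1 -0.28, tRNA-SeC-TCA-1-1 -0.14 and Stat2 -0.075. Leaving out 0.8 ppm replicate 5 gave Stat2 -0.56, tRNA-Lys-TTT-1-2 -0.0098 and piR-rno-2129341 -0.26. Leaving out 0.4 ppm replicate 6 gave miR-25-3p 0.16, tRNA-Leu-CAA-2-2 -0.23 and piR-rno-2225649 -0.51, 0.4 ppm replicate 3 gave miR-30a-5p -0.18 and tRNA-Leu-CAA-2-2 -0.0021, 0.4 ppm replicate 1 gave tRNA-Lys-TTT-1-2 -0.22, and 0.8 ppm replicate 4 gave tRNA-Glu-CTC-1-6 -0.19 and piR-rno-2225649 -0.16. The share in the 10 most abundant rows differed by -0.0548 to 2.65 percentage points in transcripts and -1.53 to 0.22 in piRNAs. The cause was not tested. No paired analysis was possible because the labels give no replicate numbers shared between the groups. Depth limits low features: for miRNAs, 3 reads are worth up to 7.6 value units.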
